A study of Rattus norvegicus with 6 samples.

Results

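The extracellular matrix and integrin genes of rat neural stem/progenitor cells (NSPCs) were examined on carbon films of 3 conductivities. A row of the count tables was taken as a member when it had a count in at least 1 library and its symbol was that of a collagen chain (Col, number, a, number), a laminin chain (Lama, Lamb or Lamc with a number) or an integrin subunit (Itga or Itgb with a number or letter code), or was Fn1, Tnc, Sparc, Nid1, Nid2, Hspg2, Agrn, Vcan, Ncan, Thbs1 or Spp1. Of 64 symbols in the tables that met the rule, 35 had a count and 29 were at 0 in all 6 libraries, among them Thbs1, Itga5, Itga4, Itgb3 and Col2a1. Nid1, Hspg2, Lamb1, Col4a2, Itgav and Itga3 had no row under these symbols. Their expression is thus unknown here, and the sums below leave them out. The 35 members were 26 matrix genes and 9 integrin genes, out of 9566 rows with a count and 17048 rows in all. Rows for proteins that bind integrins or carry a similar name, such as Itgbl1 and Itgb1bp1, are no subunits and were not counted as members.

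The matrix is built outside the cell from collagens, laminins, fibronectin and proteoglycans, and cells hold on to it through integrins, which are pairs of 1 alpha and 1 beta subunit that span the membrane and connect to the actin cytoskeleton through talin and other adaptors. Beta-1 integrin, encoded by Itgb1, pairs with most of the alpha subunits, and its pair with alpha-6 is a main laminin receptor of neural stem cells. In the germinal zones of the brain, laminins and lectican proteoglycans surround the progenitors. Both gene products that mark the group, fibronectin (Fn1) and beta-1 integrin (Itgb1), had counts in all 6 libraries.

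Wild-type rat NSPCs, which per the methods came from the telencephalon of Sprague-Dawley embryos, were kept for 24 h in medium that maintains stemness on films named High, Medium and Low for their conductivity, with 2 libraries per film. The methods give a coat of laminin over poly-D-lysine, the latter adjusted to each film, for adhesion and differentiation cultures and do not repeat it for the RNA libraries, and no group without a film was analysed here. The labels give neither a batch nor whether the 2 libraries of a film came from separate cultures. The spread between libraries, on which p-values rest, may thus be technical. The fits also share this spread across genes, so an SE, interval or p-value does not reflect a gene's own replicates alone. Each library was made by counting sequenced ends at the 3′ side of polyadenylated transcripts, so a count does not grow with transcript length.

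Total counts ran from 5124863 to 6213676 per library, and rows with a count from 5355 to 7809 of the 9566. The share of counts on ribosomal RNA rows was 26.1% and 38.4% in the High libraries and 7.16% to 13.0% in the other 4. The 2 Medium libraries stood apart from each other, with 12 of the 35 members detected in replicate 1 and 29 in replicate 2. The other 4 libraries held 19 to 23. The same split ran through the whole table. Of all rows with a count, 56.0% were detected in Medium replicate 1 and 81.6% in Medium replicate 2, against 69.9% to 75.4% in the other 4. Listed NSPC markers (7 of 8 with counts, Msi1 at 0) summed to 2993 and 2680 CPM in High. In the other 4 libraries they summed to between 3803 and 5016 CPM. CPM are counts scaled to library size with TMM factors, the unit of all levels below. Vim alone made up 2137 and 1972 CPM of the High sums and between 2545 and 3664 CPM of the others. Of the 7 markers, 5 had a log2 difference of Low and Medium against High above 0. The other 2, Fabp7 (-0.60) and Hes1 (-0.82), lay below 0. Oligodendrocyte lineage markers summed to 324 and 355 CPM in High and to between 508 and 745 elsewhere, astrocyte markers to between 51.2 and 177, and neuron markers to between 0.171 and 33.8. The part of these markers in the differences between films was not tested. With the ribosomal RNA rows taken out, the log2 differences against High of Fn1 and Itga6, described below, were 1.64 and 1.90, close to their values with these rows. This refit cannot tell the film from the ribosomal RNA share, since both High libraries held more of it than the other 4. In bulk RNA of this kind, fewer cells of a type and less RNA per cell cannot be told apart.

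For 24 of the 35 members a promoter sequence was given (RefSeq, build GRCr8, which is not the rn6 build of the counts). Promoters of 3 members are shown, each as the 250 bases before the start site, 5′ to 3′ on the gene's strand: Itgb1 at chr19:73602027-73602276 (+ strand), as the most abundant integrin, Lamc1 at chr13:68051987-68052236 (- strand), as the most abundant laminin chain, and Spp1 at chr14:5619805-5620054 (- strand), a matricellular gene at 0 in 1 library. They were chosen after the values were seen, and capitals mark letters found on either strand, namely the GC box GGGCGG, the motif GGAATG bound by TEAD factors, and the TATA box TATAAA.
Itgb1: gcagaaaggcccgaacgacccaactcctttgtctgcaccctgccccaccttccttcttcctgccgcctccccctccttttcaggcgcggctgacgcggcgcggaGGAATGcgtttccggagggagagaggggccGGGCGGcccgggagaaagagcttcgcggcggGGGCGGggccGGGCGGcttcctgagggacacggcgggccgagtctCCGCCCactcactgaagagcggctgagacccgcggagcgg
Lamc1: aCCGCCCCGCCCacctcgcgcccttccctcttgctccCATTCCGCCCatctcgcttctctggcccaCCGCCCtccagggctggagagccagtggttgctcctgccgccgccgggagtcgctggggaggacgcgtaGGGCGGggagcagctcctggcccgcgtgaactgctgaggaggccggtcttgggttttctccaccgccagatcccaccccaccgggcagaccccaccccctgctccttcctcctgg
Spp1: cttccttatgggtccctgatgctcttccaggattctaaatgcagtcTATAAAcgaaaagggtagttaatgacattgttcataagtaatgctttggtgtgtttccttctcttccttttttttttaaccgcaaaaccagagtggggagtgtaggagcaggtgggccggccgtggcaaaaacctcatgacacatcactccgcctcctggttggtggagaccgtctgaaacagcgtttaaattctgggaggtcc

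The Itgb1 stretch held 4 GC boxes and the Lamc1 stretch 5, of which the farthest pair shares a base, and each held GGAATG once, which in Lamc1 overlaps a GC box. The Spp1 stretch held no GC box and TATAAA 204 to 199 bases before the start. Among the 24 members GGGCGG was found in 14, against 30.47% of 33469 rat promoters of the same length, and TATAAA in 4, against 12.93%. CCAAT was found in 7 (34.02% of all), GGAATG in 4 (12.06%), TGACGTCA in 1 (1.587%) and TGANTCA in 0 (6.34%). A match is a run of letters, and factor binding was not measured here.

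Fibronectin, which binds integrins and collagens, was measured in every library. Fn1 was at 39.0 and 28.5 CPM on High, 144 and 168 on Medium, and 64.3 and 79.9 on Low. All 4 Medium and Low libraries lay above both High libraries, and the 3 films did not overlap. Group means were 33.7 ± 7.40 (SD, n = 2) for High, 156 ± 17.2 for Medium and 72.1 ± 11 for Low. On the log2 scale, the mean of Low and Medium exceeded High by 1.65 (SE 0.84, 95% interval -0.22 to 3.52, a fold of 3.14). This did not pass the threshold, with a p of 0.801 from the quasi-likelihood test of edgeR, adjusted after Benjamini and Hochberg over all rows tested. Medium against High gave 2.21 (SE 0.93, 95% interval 0.13 to 4.28), with an unadjusted p of 0.0395 and an adjusted p of 0.908 in edgeR. The DESeq2 fit of the same contrast put Fn1 past the threshold, at an adjusted p of 0.0170, and the values over all alternatives ran from there to 1. For Fn1, the exact permutation test over libraries, two-sided and with 4 on one side and 2 on the other, gave p = 0.133, which is the lowest value it can reach.

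**Figure D1:**
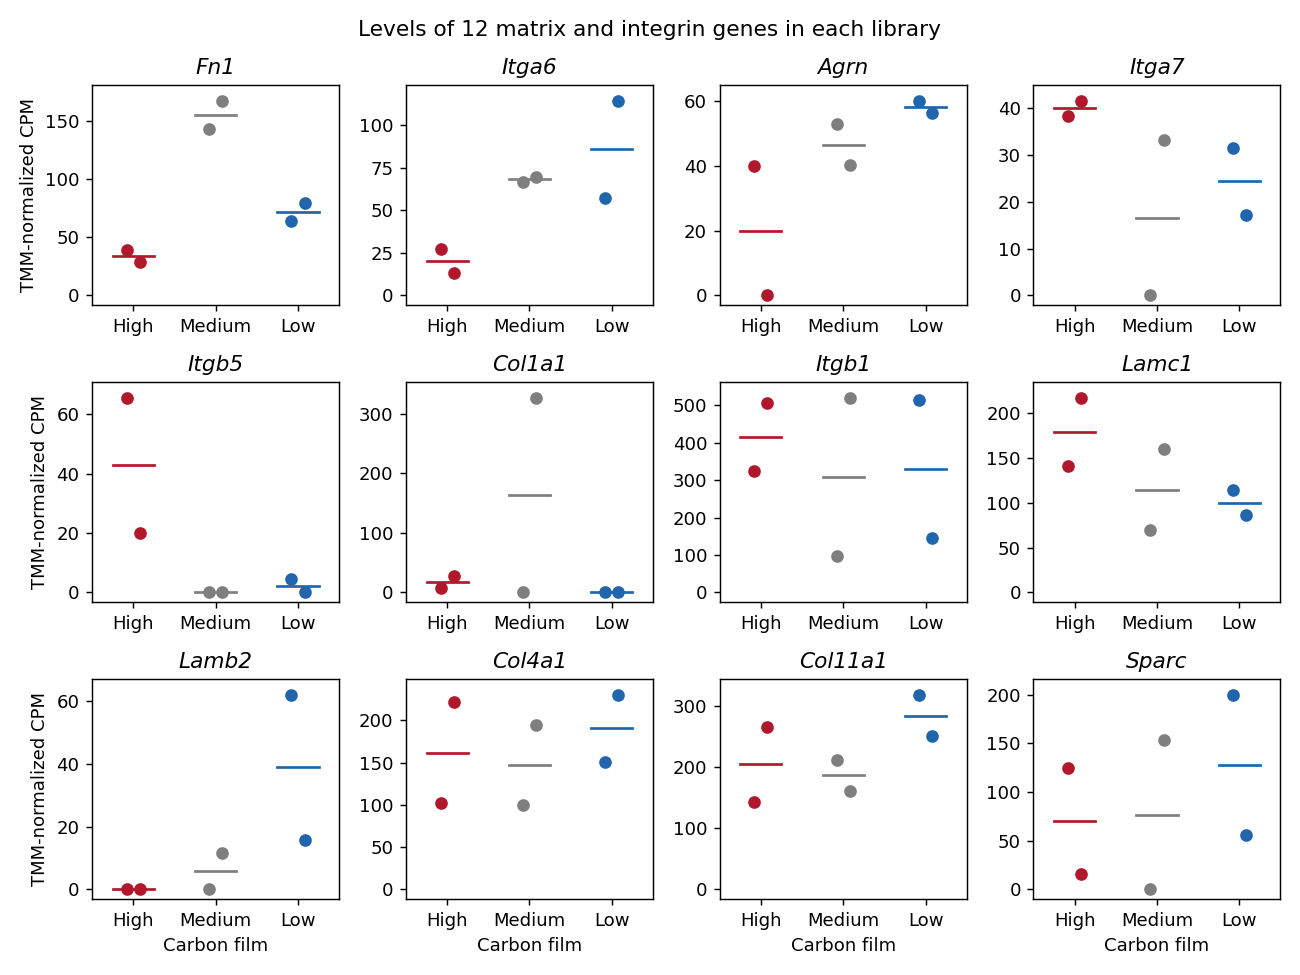
Each panel shows 1 gene, with the carbon film on the x axis and TMM-normalized CPM on the y axis. Points are single libraries (replicate 1 left, replicate 2 right) and lines the mean of 2. Fn1 and Itga6 lie lowest in High, Itgb5 lies highest in High, and the replicates of Col1a1, Sparc and Itgb1 in Medium lie far apart.

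In none of the 4 comparisons did a member pass an adjusted p of 0.05. Of the 35 members, 23 passed the filter on low counts and were tested. With Low and Medium averaged and set against High, 0 of 23 were called, beside 0.129% of all 7729 rows tested. For Low against High 0 were called (0.0518% of all rows), for Medium against High 0 (0.0129%), and for Low against Medium 0 (0%). At an unadjusted p under 0.05, edgeR gave 0 members for Low and Medium against High, where 5.5% of all rows had such a p. It gave 1 for Low against High (Col1a1, 4.27% of all rows), 1 for Medium against High (Fn1, 4.04%) and 1 for Low against Medium (Col1a1, 1.51%). By DESeq2, 1 member, Fn1, was called in Medium against High, where 3.97% of all rows were. DESeq2 called 0 members for Low and Medium against High (4.85% of all rows), 0 for Low against High (3.88%) and 0 for Low against Medium (1.5%).

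Of the members tested, 3 had all 4 Low and Medium libraries above both High libraries (Fn1, Agrn and Itga6), where 8.06% of all rows tested did. A further 2 had all 4 below (Itga7 and Itgb5), where 10.1% of all rows did. Among members too low to test, Col5a3 also lay lower, with 52 and 1 counts in High and 0 in the other 4 libraries. Both counts, like all comparisons with High, rest on the same 2 High libraries.

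**Figure D2:**
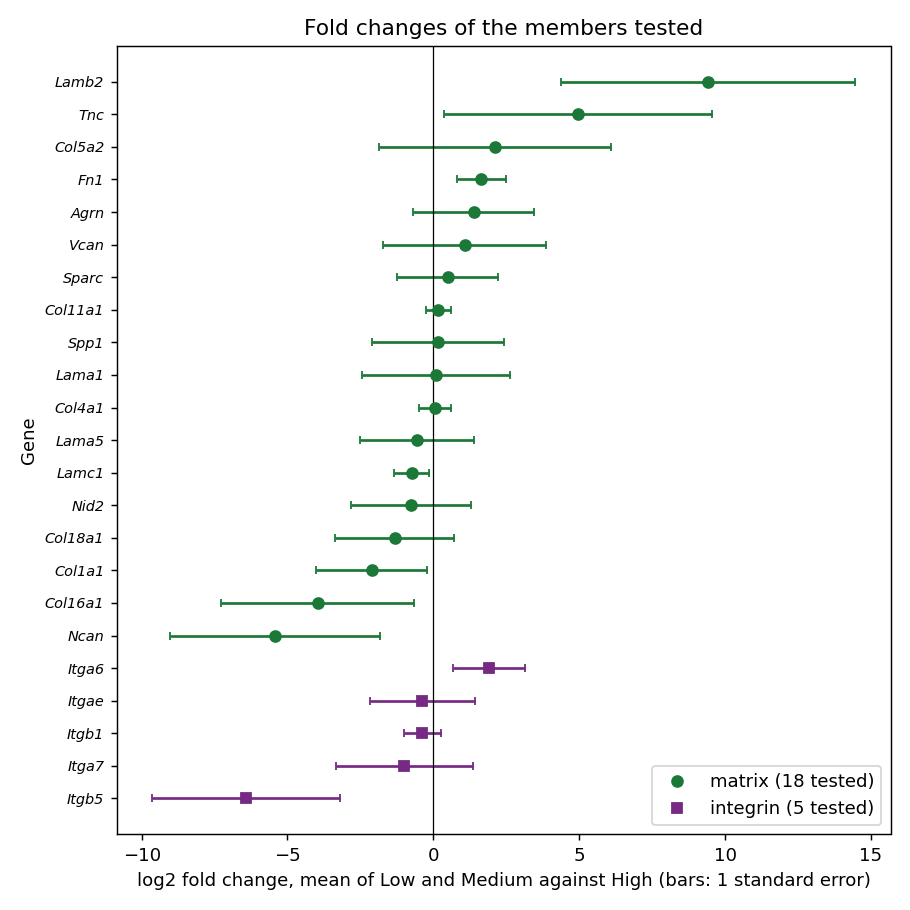
Points give the log2 fold change, averaged over Low and Medium and relative to High, for the 23 members tested, and bars 1 standard error. The y axis lists the genes, matrix genes as circles and integrins as squares. The points of Lamb2, Ncan, Tnc, Col16a1, Col1a1, Col5a2 and Itgb5 rest on libraries at or near 0 counts and give no size of a difference. Those of Vcan, Agrn, Sparc, Spp1, Nid2, Lama5, Itga7 and Col18a1 also include a library at or near 0 counts, so their size is uncertain too.

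Laminins are heterotrimers of an alpha, a beta and a gamma chain that organise basement membranes. The gamma-1 chain gene Lamc1 was the most abundant, at 141 and 218 CPM on High, 69.2 and 160 on Medium, and 114 and 86.2 on Low. Its log2 difference of Low and Medium against High was -0.74 (SE 0.59, 95% interval -2.06 to 0.58, edgeR adjusted p = 0.867), and was -1.12 when Medium replicate 2 was left out and -0.40 when High replicate 2 was. Both Low libraries lay below both High libraries, while Medium overlapped with each. The alpha-1 chain gene Lama1 was the steadiest of the laminins, at 17.0 and 15.9 CPM on High, 21.4 and 17.97 on Medium, and 13.7 and 17.5 on Low. The alpha-5 chain gene Lama5 varied within every film, at 83.1 and 20.9 CPM on High, 0 and 38.7 on Medium, and 113 and 13.9 on Low.

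The beta-2 chain gene Lamb2 differed in detection between films. It was counted 0 and 0 times on High, 0 and 72 times on Medium, and 431 and 95 times on Low. Both Low libraries held it and both High libraries did not. With each High library set to a floor of 3 counts, the Low mean was 58.8-fold higher. That value depends on the floor and gives no size of the difference, since replicates of the Medium film held 0 and 72 counts. The test gave an unadjusted p of 0.0772 and an adjusted p of 0.899 in edgeR for this contrast. The beta-3 chain gene Lamb3 was found in 1 library, with 185 counts in High replicate 2.

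The other basement membrane genes with counts were Agrn and Nid2, while Nid1 and Hspg2 had no row. Agrn encodes agrin, a heparan sulfate proteoglycan that binds dystroglycan, and was at 39.8 and 0 CPM on High, 53.0 and 40.2 on Medium, and 60.2 and 56.2 on Low. Its separation rests on 40.2 against 39.8 CPM and on 1 High library at 0. Nid2 encodes nidogen-2, which links laminin to collagen IV, and was at 22.8 and 79.8 CPM on High, 0 and 45.7 on Medium, and 51.9 and 27.6 on Low. Levels of Nid2 overlapped between the films.

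Among basement membrane collagens, Col4a1, the alpha-1 chain of collagen IV, was detected throughout. It was at 102 and 221 CPM on High, 99.5 and 194 on Medium, and 151 and 230 on Low. Its log2 difference of Low and Medium against High was 0.05 (SE 0.55, 95% interval -1.17 to 1.27), and just below 0, at -0.0275, with RLE size factors. Col18a1, the precursor of endostatin, was at 77.8 and 38.5 CPM on High, 0.513 and 35.4 on Medium, and 0.866 and 59.0 on Low. A single replicate each of Medium and Low was close to 0 and its partner was not.

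Of the fibrillar collagens, Col11a1 was the most abundant, at 144 and 267 CPM on High, 212 and 162 on Medium, and 319 and 251 on Low. The gene encodes a collagen XI chain that nucleates thin fibrils. Its log2 difference of Low and Medium against High was 0.17 (SE 0.43, 95% interval -0.79 to 1.13), the narrowest interval of the members tested. Col1a1, the main chain of collagen I, behaved unlike it. It was counted 38 and 116 times on High, 0 and 2005 times on Medium, and 0 and 1 times on Low. Low held at most 1 count and both High libraries held more, with an unadjusted p of 0.0365 and an adjusted p of 0.899 in edgeR for Low against High. Low against Medium gave an unadjusted p of 0.0115 and an adjusted p of 1, and its direction turned without Medium replicate 2, the library that held the 2005 counts. Leaving out Medium replicate 1 brought adjusted p-values of 0.0125 for Low against High, with 31 of 8959 rows called, and 0.00129 for Low against Medium, with 1 row called.

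The remaining fibrillar collagens were sparse. Col5a2 was at 6.98 and 0 CPM on High, 0 and 14.7 on Medium, and 0 and 63.3 on Low. Col3a1 had 384 counts in Medium replicate 2 and none elsewhere, and Col1a2 had 34 counts in High replicate 2 and none elsewhere. Col1a1 and Col1a2, whose products assemble into the same collagen I molecule, were thus not found together in Medium replicate 2, where Col1a2 was at 0. Among the other collagens, Col16a1 was at 16.6 and 0 CPM in High, 0 in both Medium libraries, and 0 and 25.7 in Low. Col8a1, Col7a1 and Col6a2 had 80, 63 and 2 counts in Medium replicate 2 and were at 0 in the other 5 libraries.

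Markers of other cell types were read beside the collagens. Of 8 listed mural and meningeal fibroblast markers 3 had counts, and Pdgfrb, Rgs5, Dcn, Lum and Foxc1 were at 0 in all 6 libraries. The summed level of the list was 95.2 and 157 CPM on High, 14.9 and 8.17 on Medium, and 51.9 and 20.1 on Low, from Acta2, Tagln and Cspg4 alone. In Medium replicate 2 it consisted of 50 counts of Cspg4. The part of such cells in the collagen counts was not tested. Endothelial markers (2 of 6 with counts, Cldn5, Pecam1, Cdh5 and Tek at 0) summed to 0 in both High libraries and to between 5.18 and 15.4 CPM in the other 4. Microglial markers (2 of 8 with counts) summed to between 0 and 37.5 CPM.

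Lecticans are chondroitin sulfate proteoglycans that bind hyaluronan in the brain matrix. Vcan (versican) was at 35.9 and 0 CPM on High, 0 and 73.8 on Medium, and 53.4 and 24.9 on Low. Ncan (neurocan) was at 27.9 and 0 CPM in High, 0 and 9.64 in Medium, and 0 throughout Low. Each was at 0 in 1 library of both High and Medium, so the films overlapped.

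Matricellular proteins sit in the matrix and modulate adhesion without building it. Sparc was at 125 and 15.7 CPM on High, 0 and 153 on Medium, and 200 and 56.3 on Low. Spp1, which encodes osteopontin, an integrin ligand, was at 6.15 and 45.8 CPM on High, 0 and 29.6 on Medium, and 64.3 and 51.0 on Low. Both Low libraries of Spp1 lay above the other 4. Tnc (tenascin-C, a protein of the neural stem cell niche) was at 0 and 0.950 CPM on High, 0 and 42.1 on Medium, and 0.577 and 21.7 on Low. Medium replicate 1 was at 0 for all 3 genes.

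Itgb1 had the highest mean level of all members, at 325 and 507 CPM on High, 96.7 and 521 on Medium, and 516 and 145 on Low. Group means were 416 ± 129 (SD, n = 2), 309 ± 300 and 330 ± 262, so replicates of a film differed by more than the films did. The log2 difference of Low and Medium against High was -0.38 (SE 0.64, 95% interval -1.80 to 1.04, edgeR unadjusted p = 0.564), and it was 0.016 with library sizes alone and ran from -1.23 without Medium replicate 2 to -0.0010 without Medium replicate 1.

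The other beta subunits were low or absent in most libraries. Itgb5, which pairs with alpha-V in a vitronectin receptor, was counted 320 and 84 times on High, 1 and 0 times on Medium, and 32 and 0 times on Low. Both High libraries were above the other 4, at an unadjusted p of 0.0740 and an adjusted p of 0.801 in edgeR for Low and Medium against High. Itgb4 and Itgb8 had 65 and 22 counts in Medium replicate 2 and were at 0 in the other 5 libraries. Itgb2, the beta subunit of leukocyte integrins, had between 0 and 12 counts.

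Among alpha subunits, Itga6, the laminin-binding alpha-6 chain, was lowest in High, at 27.5 and 13.3 CPM, against 66.8 and 69.2 in Medium and 57.1 and 114 in Low. The 2 High libraries lay below all 4 others. Low and Medium exceeded High by 1.90 on the log2 scale (SE 1.22, 95% interval -0.82 to 4.63, a fold of 3.74), at an adjusted p of 0.801 in edgeR. This log2 difference of Itga6 was 2.52 when High replicate 1 was left out and 1.47 when High replicate 2 was.

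Itga7, another laminin-binding chain, was at 38.4 and 41.6 CPM on High, 0 and 33.2 on Medium, and 31.4 and 17.2 on Low, so that both High libraries lay above the rest. The gap was narrow, and without TMM factors the films overlapped. Itgae, the alpha-E chain known from intraepithelial lymphocytes, was at 42.1 and 25.7 CPM on High, 47.7 and 44.9 on Medium, and 6.92 and 22.6 on Low. Its 2 Low libraries lay below the other 4. Itga8 had 1 count in High replicate 2, 7 in Low replicate 2 and 0 elsewhere.

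**Figure D3:**
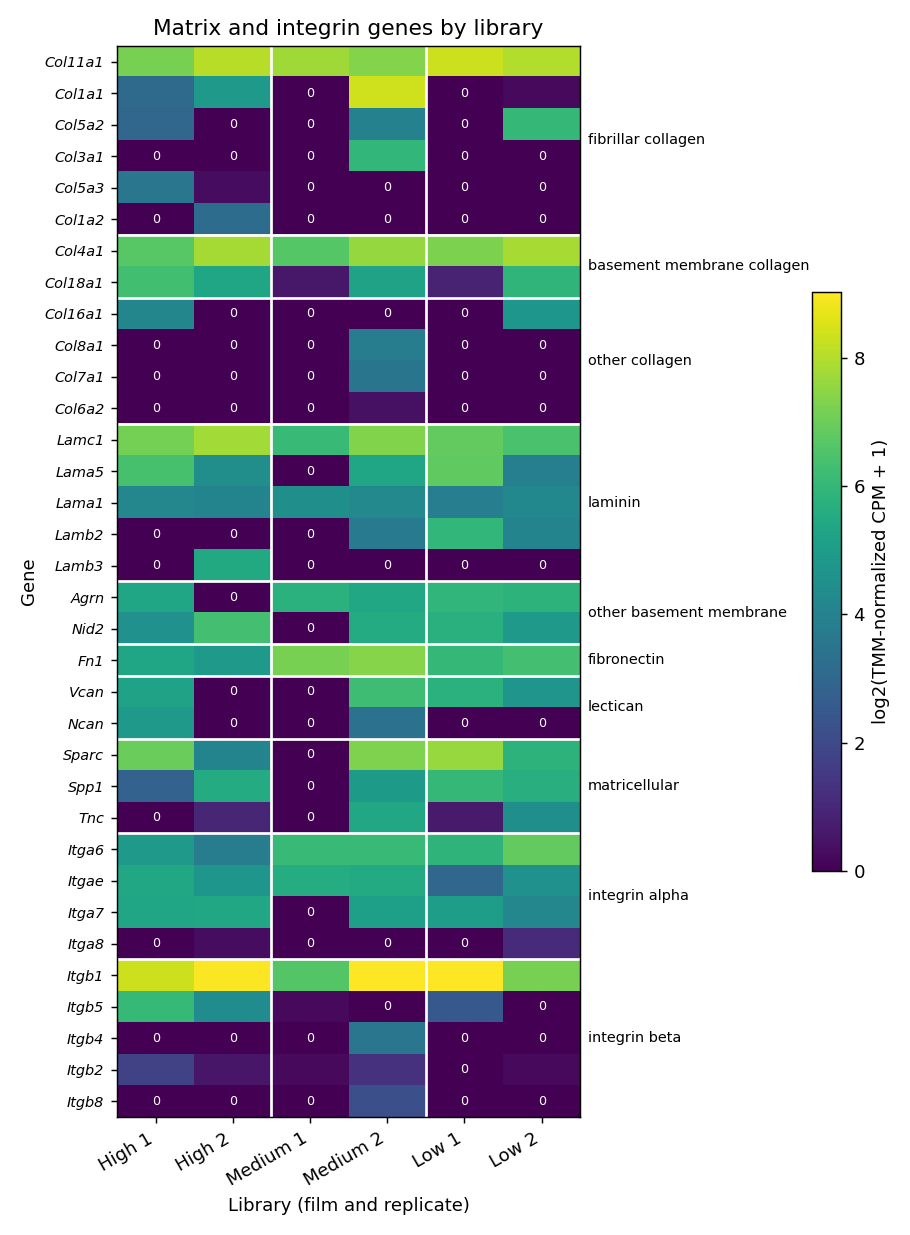
Rows are 34 of the 35 members ordered by role, columns the 6 libraries, and colour the log2 of TMM-normalized CPM plus 1. A printed 0 marks no counts, and Medium replicate 1 has the most zeros and Medium replicate 2 the fewest.

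Detection differed between replicates of a film. Of the 35 members, 9 had counts in all 6 libraries, namely Fn1, Col4a1, Col11a1, Col18a1, Lamc1, Lama1, Itgb1, Itga6 and Itgae, and 9 in a single library, of which 7 were in Medium replicate 2. In High 5 members were at 0 in a replicate while the partner library held 50 counts or more, where 14.8% of all rows with a count did. In Medium 15 members did (21.8% of all rows) and in Low 2 (14.7%). In all 15 Medium cases replicate 1 was the one at 0. Over the 3 films 18 members did so at least once (40.2% of all rows), which were 16 of the 26 matrix genes and 2 of the 9 integrin genes.

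Matrix and integrin genes were then set side by side. Relative to High, 11 of the 18 matrix genes with a test lay higher in Low and Medium and 7 lower, with a median log2 difference of 0.13. Of the 5 integrin genes tested 1, Itga6, was higher and 4 were lower, with a median of -0.38, which was -0.0035 with library sizes alone. All rows tested had a median of -0.12, with 3548 higher and 4181 lower. For Low against High the medians were 0.55 (12 of 18 higher) for matrix genes, -0.72 (1 of 5 higher) for integrin genes and 0.02 for all rows. For Medium against High they were -0.01 (9 of 18 higher), -0.43 (2 of 5 higher) and -0.06. For Low against Medium they were 0.49 (12 of 18 higher), 0.33 (4 of 5 higher) and 0.07.

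The medians of Low and Medium against High moved with single libraries. Over the same 18 matrix and 5 integrin genes, they became -2.97 and -1.23 without Medium replicate 2, and 1.32 and -0.66 without High replicate 1. The filter on low counts also let in other genes in these fits, and over all members then tested the medians were -3.96 and -2.32 (21 matrix and 6 integrin genes) and 2.28 and 0.0277 (24 and 7). The 2 groups share the libraries and the members are not replicates, so the medians are descriptions.

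Summed over the members, matrix genes were at 903 and 1031 CPM on High, 599 and 1614 on Medium, and 1269 and 1080 on Low. Integrin genes summed to 501 and 608 CPM on High, 212 and 684 on Medium, and 616 and 300 on Low. In the matrix sum both Low libraries lay above both High libraries, while Medium overlapped with each. The integrin sums overlapped between all films. The ratio of the matrix sum to the integrin sum within a library, which no scaling changes, was 1.80 and 1.70 on High, 2.83 and 2.36 on Medium, and 2.06 and 3.60 on Low. All 4 Medium and Low libraries lay above both High libraries, with group means of 1.75 ± 0.0757 (SD, n = 2), 2.59 ± 0.333 and 2.83 ± 1.09. On the log2 scale the ratio was 0.60 higher in Low and Medium, between 0.40 and 0.80 as each library was left out. No test was run, since the members were chosen with results of these data known.

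Itgb1 carried most of the integrin sum in 4 libraries, at 64.9% and 83.4% on High, 45.7% and 76.2% on Medium, and 83.7% and 48.2% on Low. Without Itgb1 the ratio was 5.13 and 10.2 on High, 5.21 and 9.90 on Medium, and 12.7 and 6.95 on Low, so the films overlapped and the log2 difference dropped to 0.18. Without Itgb5 the separation was all but lost, with 2.0754 in High replicate 1 against 2.0765 in Low replicate 1 and a log2 difference of 0.48. It remained when any other single member was left out. The share of Itga6 in the integrin sum was 5.49% and 2.19% on High, 31.6% and 10.1% on Medium, and 9.28% and 38.1% on Low. Col1a1 made up 20.3% of the matrix sum in Medium replicate 2.

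**Figure D4:**
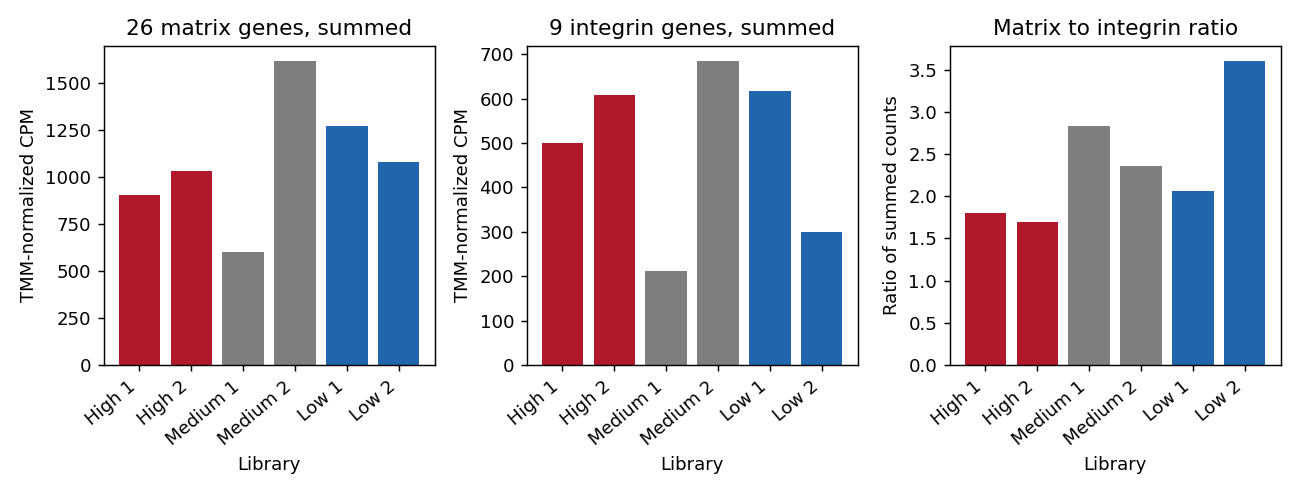
Bars give, for each of the 6 libraries, the summed TMM-normalized CPM of the 26 matrix genes, that of the 9 integrin genes, and the ratio of both sums. The matrix sum is higher in both Low than in both High libraries and overlaps with each in Medium, and the integrin sums overlap between films. The ratio is 1.70 and 1.80 in High and between 2.06 and 3.60 in the other 4 libraries.

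Other genes of the adhesion pathway were read from fixed lists, and none of the lists held a gene past the adjusted threshold in Low and Medium against High. Of other matrix receptors (dystroglycan, syndecans, glypicans, discoidin receptors) 14 were tested, with 9 higher, 5 lower and a median log2 difference of 0.26. Dag1 encodes dystroglycan, a receptor of laminin and agrin, and lay higher in all 4 Low and Medium libraries. It was at 347 and 487 CPM on High, 505 and 499 on Medium, and 690 and 654 on Low, a narrow gap to Medium. Its log2 difference was 0.48 (SE 0.27, edgeR adjusted p = 0.801). Sdc4, of the same list, lay lower in all 4, at 172 and 130 CPM on High, 94.2 and 42.3 on Medium, and 50.1 and 23.1 on Low. Its log2 difference was -1.60 (SE 0.81, edgeR adjusted p = 0.801). Of all rows tested, 8.06% lay higher in this way and 10.1% lower. Of focal adhesion adaptors and kinases 18 were tested, with 6 higher, 12 lower and a median of -0.40. Ilk, integrin-linked kinase, was the 1 of these 18 with an unadjusted p under 0.05 (0.0398 in edgeR), where 5.5% of all rows tested had such a p. Its counts were 609 and 432 on High, 3110 and 1358 on Medium, and 934 and 1327 on Low.

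Of genes that process and crosslink collagen 12 were tested, with 5 higher, 7 lower and a median of -0.53. P4ha1, the catalytic subunit of collagen prolyl 4-hydroxylase, was counted 1464 and 2874 times on High, 717 and 414 times on Medium, and 612 and 327 times on Low. Its log2 difference was -2.58 (SE 0.48, -1.87 without High replicate 2) at an unadjusted p of 0.000305 and an adjusted p of 0.107 in edgeR, and the adjusted p ran from 8.06e-06 with DESeq2 to 0.939 without High replicate 2. P4hb and Serpinh1, a subunit of the same enzyme and a collagen chaperone, were lower in Low and Medium. Unadjusted p-values were 0.0250 and 0.0176 in edgeR. With P4ha1, 3 of the 12 had an unadjusted p under 0.05, where 5.5% of all rows tested did. Both passed the threshold with DESeq2 at adjusted p-values of 0.0313 and 0.0201, where 4.85% of all rows did. For P4hb most of this lay in Medium, with a log2 difference against High of -1.25, and -0.29 for Low. The log2 difference of Serpinh1 was -0.65, and -0.31 when High replicate 1 was left out.

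Of matrix proteases and their inhibitors 21 were tested, with 11 higher, 10 lower and a median of 0.26. Mmp15, a membrane-bound metalloproteinase, was counted 382 and 67 times on High, 2654 and 2142 times on Medium, and 2438 and 2088 times on Low. Its log2 difference was 2.99 (SE 0.64), with 4.56 when High replicate 1 was left out and 2.26 when High replicate 2 was. The adjusted p was 0.212 in edgeR and ran from 1.37e-06 without High replicate 1 to 0.396 with limma-voom. Of 9 other matrix genes tested 4 were higher and 5 lower, with a median of -0.72.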

How the data were processed

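QuantSeq 3′ libraries of 6 NSPC samples were sequenced single-end. The authors used Bowtie2 for alignment and bedtools to count reads per gene, those with several alignments included, and the submitters' processing notes name the rn6 build. The deposited values are whole-number counts, 1 table per library, before any normalization. Counting of multiple alignments leaves near-identical genes uncertain, and whether strand was used is not given in the sources used here. The labels name Trizol and the methods another kit for RNA isolation. No column of other samples was found (0 columns), and no 2 libraries were the same.

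Groups were taken from the sample titles. Rows were filtered with filterByExpr of edgeR, which left 7729. TMM factors were applied, and all 6 libraries entered 1 quasi-likelihood fit in edgeR. It shared the spread over rows, with 6.96 prior degrees of freedom beside 3 residual ones. P-values were adjusted after Benjamini and Hochberg over all rows tested, with a threshold of 0.05. The contrasts were Low and Medium averaged against High, Low against High, Medium against High, and Low against Medium. Tools were R 4.3.3, edgeR 4.0.16, limma 3.58.1 and DESeq2 1.42.0. The fit was also run on simulated counts, drawn from the same kind of model. Such counts assume that model, so they do not show that it holds for these libraries. Figures add a pseudocount of 1 to CPM where a log is shown.

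Values per library are given for Fn1 and Itgb1, for members with an unadjusted p under 0.05, for up to 3 members per role with the highest mean CPM, and for members with at most 3 counts in both libraries of a film and at least 50 in both of another. Col3a1, Col1a2, Col5a3, Col6a2, Lamb3, Itgb2, Itgb8 and Itga8 were given to account for the other members, apart from 1 member that is counted in all totals but, like 1 gene of the other lists, is not reported here. Genes of the other lists were named for an unadjusted p under 0.05, apart from Dag1 and Sdc4, chosen after their values were seen. The members and lists were chosen with earlier results of these data known. Alternatives were 3 other scalings, ribosomal RNA rows taken out, 2 other filters, DESeq2, limma-voom, the replicate number as a block, fits of the compared films alone and leaving out each library. The exact permutation test compared log2(CPM + 1) of 4 libraries with 2.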

Additional observations from a re-analysis of the deposited data

How the results depend on the processing

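With 0 members called in each comparison, the count stayed at 0 under the other scalings, without ribosomal RNA rows, with limma-voom and in fits of the compared films alone. It became 1 for Medium against High with DESeq2 (Fn1) and 1 for Low against Medium without a filter (Col1a1, with 5 of 9566 rows called). Leaving out single libraries gave 0 to 1 in each of the 4 comparisons. The 1 was Sparc in all 3 comparisons that involve Medium without Medium replicate 2, where 242, 275 and 194 of 8678 rows were called, and otherwise Col1a1, in Low against High without High replicate 1 or Medium replicate 1, and in Low against Medium without High replicate 1, High replicate 2, Medium replicate 1 or Low replicate 2, with between 1 and 38 rows called. In these fits an arm has 1 library, which is assumed to vary like the others.

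The median of matrix genes ran from -3.96 to 2.28 as libraries were left out (-2.97 to 1.32 over the same 18 genes, a choice made after seeing the data) and was -0.33 with limma-voom. That of integrin genes ran from -2.32 to 0.0277 (-1.23 to -0.39 over the same 5 genes, with -0.97 without Low replicate 1 and -0.81 without Low replicate 2) and was -0.0035 with library sizes alone, a scaling that moved the median of all rows from -0.12 to 0.26 and turned Itgb1 to 0.016. Col4a1 turned to -0.0275 with RLE size factors in edgeR and to -0.0273 with DESeq2, and ran from -0.40 to 0.72 as libraries were left out. Col11a1 ran from -0.21 to 0.68, and Col1a1 in Low against Medium from -12.8 to 2.22. The log2 difference of the matrix to integrin ratio was 0.18 without Itgb1, an alternative chosen after seeing the data, and ran from 0.40 to 0.80. Where nothing else is said, the cause was not tested.

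The replicate numbers did not pair the libraries: deviations of same-numbered libraries correlated at 0.00656 (High and Medium), 0.00344 (High and Low) and 0.00731 (Medium and Low) across rows. With the replicate number as a block 0 members were called in each comparison, while calls over all rows went from 10 to 57 for Low and Medium against High, from 4 to 30 for Low against High, from 1 to 39 for Medium against High and stayed at 0 for Low against Medium. DESeq2 called 375, 300, 307 and 116 rows in these comparisons. Levels near 3 counts per library cannot show a difference at this depth.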
